A study of Mus musculus with 15 samples.

Results

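The neighbours of Tert on mouse chromosome 13 were followed in kidneys of mice that lack Tert and of mice that carry it. The set was a list of 39 protein-coding genes on both sides of Tert, chosen by position but with earlier results of these data known. Of these, 36 had a row among the 19602 genes of the table. Zdhhc11, Irx4 and Pcsk1 had none and were not analysed here. A further 3 genes, Adcy2, Trip13 and Ahrr, fell below the filter on low values, which left 33 tested. The list is not every gene there: another 97 genes with a row lie within 10 Mb of Tert, and 62 of them were tested. The list runs from Mtrr, 5.04 Mb from Tert on the centromere side (chromosome 13, start 68560780, end 68582149), to Arrdc3, 7.23 Mb away on the telomere side (start 80883384, end 80896042). Tert itself spans 73626911 to 73649843. All positions are GRCm38 with GENCODE M21 annotation.

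The samples were whole kidneys from mice of up to 8 weeks (the lower age is missing from the label), male and female by label, in 4 groups. G3 folic acid (n = 4) were generation 3 Tert-/- mice given a single injection of folic acid into the abdomen at 125 mg/kg. WT folic acid (n = 3) were Tert+/+ mice given the same dose. G3 vehicle (n = 4) and WT vehicle (n = 4) were Tert-/- and Tert+/+ mice given 200 ul of 0.3 M NaHCO3 instead. Every kidney was perfused with cold buffered saline and taken at day 14. Tert encodes the catalytic subunit of telomerase, and telomeres shorten when mice without it are bred with each other over generations. Folic acid at a high dose injures kidney tubules. The strain of the mice, the number of backcrosses, the part of Tert that was removed and whether WT and G3 mice were littermates are not stated in the labels.

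A gene targeted in embryonic stem cells of one mouse strain and then moved to another strain by crossing stays flanked by DNA of the first strain. Genes in that flank are passengers: their RNA can differ between mutant and wild-type animals because the 2 genotypes carry different alleles of the neighbour. Homozygous mutants keep the flank on both chromosomes. The flanking DNA is the same in every treatment, while the effect of an allele on RNA may depend on treatment or sex. The genotypes were compared after folic acid, after vehicle, and as the mean of both. The set holds several genes of the kidney tubule. Slc6a18 and Slc6a19 are neutral amino acid transporters of the proximal tubule brush border, Slc9a3 is the sodium/proton exchanger of the same membrane, Slc12a7 is a potassium-chloride cotransporter, and Irx1 and Irx2 are homeobox factors of the developing nephron.

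Each library held 5014684 to 6609307 reads over genes, from the 3′ ends of polyadenylated RNA. Values are normalised counts, in which 1 read was worth 0.895 to 1.13, and differences are on the scale log2(normalised count + 1), which understates the change of genes with few reads. Replicate numbers only name libraries, and the labels do not say outright that each library is a separate animal, so p-values measure the spread between libraries. The tissue label held: the summed count of 7 proximal tubule markers was 19247 to 40525 and that of 3 thick ascending limb markers 13992 to 33676 over all libraries. The summed count of 3 adipose markers was higher in every G3 library than in any WT library. It was 201 to 647 in G3 folic acid and 128 to 146 in WT folic acid. After vehicle it was 225 to 3088 in G3 and 117 to 197 in WT. Of these 3 genes 0 were called in any genotype comparison, and their part in the genotype differences was not tested. The labelled sex did not hold. The Y share, which is the sum of the 4 Y-linked genes Uty, Eif2s3y, Kdm5d and Ddx3y relative to the library where it was highest, was 0.80, 0.017, 0.77 and 0.31 in G3 folic acid 1 to 4, and 0.011 to 0.034 in WT folic acid. It was 0.0011 to 0.0087 in G3 vehicle, and 0.99, 0.33, 0.94 and 1.0 in WT vehicle 1 to 4. G3 folic acid 4 and WT vehicle 2 held Xist RNA (2006 and 3027) beside Y-linked RNA. Y-linked RNA was thus higher in G3 than in WT after folic acid and lower in G3 than in WT after vehicle. After vehicle the Y share did not overlap between genotypes, so a Y share term in the fit can hardly be told apart from genotype there. Of 8 fixed genes known to be higher in male mouse kidney, 3 were higher in G3 after folic acid and all 8 were lower in G3 after vehicle. In WT folic acid 1, 23.0% of the reads lay in Gm42418, a gene model that overlaps ribosomal RNA, against 4.85% to 8.15% in the other libraries. The number series of the sample titles also followed the groups: 1 series held G3 folic acid 1 to 4, G3 vehicle 4 and WT vehicle 4, another held WT folic acid and WT vehicle 1 to 3, and another held G3 vehicle 1 to 3. The labels do not say what the series is. For G3 folic acid against WT folic acid the title series and the genotype cannot be told apart within the comparison.

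Tert RNA was near the limit of detection. Its normalised count was 6.35, 4.70, 3.00 and 10.7 in G3 folic acid, against 13.6, 6.72 and 6.67 in WT folic acid. It was 6.10, 2.93, 15.1 and 9.02 in G3 vehicle, against 22.6, 7.58, 15.4 and 3.00 in WT vehicle. The groups overlapped in both treatments, and the mean difference between G3 and WT was log2 -0.45 (SE 0.41, limma adjusted p = 0.563). Since the labels do not state which part of Tert was removed, and reads come from 3′ ends, this level was not used to check the mutation or the labels.

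After folic acid 1 of the 33 tested neighbours differed between genotypes at an adjusted p under 0.05 over all 14651 genes tested, where 2.3% of all genes did. It was Slc6a18, lower in G3. After vehicle 1 of 33 differed, against 2.9% of all genes, and it was Srd5a1, lower in G3. In the mean of both treatments 2 of 33 differed, again Slc6a18 and Srd5a1 and both lower in G3, against 2% of all genes. Leaving out WT folic acid 1 alone gave 5 neighbours, where 440 of all genes were higher in G3 and 507 lower. Leaving out G3 vehicle 1 alone also gave 5, where 305 of all genes were higher and 454 lower. With every library kept 96 of all genes were higher and 197 lower. Leaving out any other library gave 0 to 2 neighbours. The median absolute difference of the 33 was log2 0.26 in the mean of both treatments, against 0.18 over all genes tested.

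**Figure D1:**
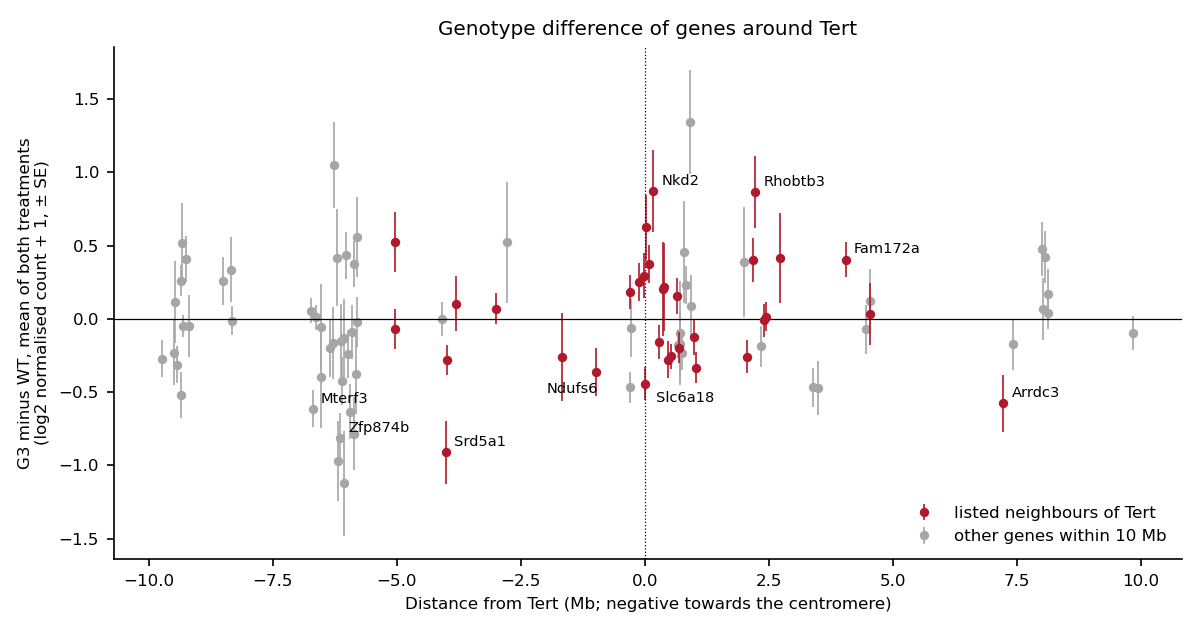
Mean difference between G3 and WT over both treatments (log2 normalised count + 1, with its standard error) plotted against distance from Tert in Mb, for the 33 tested members of the list in red and 62 other tested genes within 10 Mb in grey. Slc6a18 sits beside Tert at log2 -0.44 and Srd5a1 4.02 Mb away at log2 -0.91, while Nkd2 and Rhobtb3 lie above the zero line.

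Slc6a18 is the immediate neighbour of Tert on the telomere side (start 73661752, end 73678023, minus strand), 0.0119 Mb from the end of Tert. After folic acid its count was 1337, 1721, 1567 and 1872 in G3 and 3778, 3652 and 3588 in WT. All 4 G3 libraries lay below all 3 WT libraries, with means of 1625 ± 229 and 3673 ± 96.6 (SD). Slc6a18 was 2.28-fold lower in G3 (log2 -1.19, SE 0.16, limma adjusted p = 0.0040). Adding the Y share as a term gave log2 -0.90 (limma adjusted p = 0.032). In fits without the Y share the call held without each of the 15 libraries in turn. With the Y share 0 of 33 members passed without G3 folic acid 1 or 2 or G3 vehicle 4. The same was seen without WT folic acid 2 or 3, or without WT vehicle 1 or 4. With edgeR and the Y share the adjusted p was 0.070, and with the title series as a term the limma adjusted p was 0.999 at a difference of log2 -1.08.

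After vehicle Slc6a18 gave no difference in that direction. Its count was 2204, 2285, 2736 and 2646 in G3 and 1895, 2767, 1599 and 1885 in WT. The WT library with the highest value was number 2, the one with mixed X- and Y-linked RNA, and the groups overlapped through it. The difference was log2 0.30 (SE 0.15, limma adjusted p = 0.311), and log2 -0.21 with the Y share in the fit. In the 1 title series that held both genotypes after vehicle, the count was 2646 in G3 and 1885 in WT. The genotype difference after folic acid less that after vehicle was log2 -1.49 (SE 0.22, limma adjusted p = 0.0022), and 2 of 33 neighbours passed this test, against 3.82% of all genes. That gap was log2 -0.69 with the Y share in the fit (limma adjusted p over 0.99). Within groups Slc6a18 was lower where Y-linked RNA was higher, with a coefficient of log2 -0.64 per unit of Y share (SE 0.20, limma adjusted p = 0.166). In the mean of both treatments Slc6a18 was at log2 -0.44 (SE 0.11, limma adjusted p = 0.050, just under the threshold) and log2 -0.55 with the Y share (limma adjusted p = 0.012), and the call without the Y share was lost on leaving out any of 11 libraries.

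Slc6a19 lies next to it on the same strand (start 73679745, end 73704865), 1722 bases further on. Its count was 476, 252, 440 and 329 in G3 and 108, 300 and 276 in WT after folic acid. After vehicle it was 225, 387, 425 and 490 in G3 and 202, 320, 245 and 330 in WT. The G3 libraries reached higher but overlapped with WT in both treatments. The difference was log2 0.80 after folic acid (SE 0.33, limma adjusted p = 0.182) and log2 0.45 after vehicle (SE 0.30, limma adjusted p = 0.478), opposite in sign to Slc6a18 after folic acid. The 7 proximal tubule markers summed to 19247 to 33322 in G3 and 19942 to 34862 in WT after folic acid, with 1 of 7 lower in G3 and 0 higher. The 3 thick ascending limb markers summed to 13992 to 22197 in G3 and 26602 to 33676 in WT after folic acid, with no overlap. The part of tubule content in the Slc6a18 difference was not tested, and in bulk RNA fewer cells of a type and less RNA per cell cannot be told apart.

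Neither ion transporter of the list passed over all genes. Slc12a7, 0.0833 Mb from Tert, had 241, 219, 247 and 225 in G3 and 160, 180 and 149 in WT after folic acid, with no overlap (log2 0.51, SE 0.19, limma adjusted p = 0.140). After vehicle it had 187, 323, 247 and 301 in G3 and 171, 194, 251 and 283 in WT, which overlapped (log2 0.23). Slc9a3, 0.472 Mb away, had 107 to 136 in G3 and 135 to 225 in WT after vehicle (log2 -0.62, SE 0.17, limma adjusted p = 0.057). After folic acid Slc9a3 had 118 to 139 in G3 and 94.2 to 152 in WT (log2 0.06).

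Srd5a1 encodes a steroid 5-alpha-reductase, which turns testosterone into dihydrotestosterone. It lies 4.02 Mb from Tert on the centromere side (start 69573449, end 69611442, minus strand), inside the span that GENCODE gives to Nsun2 on the plus strand. No label gives the strand setting of the counting, so the 2 genes may share reads. Nsun2, an RNA methyltransferase, had 198 to 310 in G3 and 272 to 364 in WT after folic acid and 220 to 299 in G3 and 294 to 326 in WT after vehicle (log2 -0.27 and log2 -0.29). After vehicle Srd5a1 had 27.5, 21.5, 29.2 and 38.1 in G3 and 118, 96.7, 84.4 and 133 in WT. Every G3 library lay below every WT library. Srd5a1 was 3.64-fold lower in G3 (log2 -1.86, SE 0.29, limma adjusted p = 0.0032), and the call held without each of the 15 libraries in turn.

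After folic acid no difference in Srd5a1 was found: the count was 88.1, 29.1, 72.9 and 57.3 in G3 and 76.0, 50.9 and 44.8 in WT (log2 0.04, SE 0.31, limma adjusted p = 0.960). Within G3 folic acid the lowest value belonged to library 2, the 1 with a Y share near 0, and the highest to libraries 1 and 3, which had the highest Y shares. Over all groups the coefficient was log2 1.15 per unit of Y share (SE 0.39, limma adjusted p = 0.217). The vehicle difference shrank to log2 -0.94 once the Y share was a term (limma adjusted p = 0.803), and to log2 -0.03 when G3 folic acid 4 and WT vehicle 2 were also left out. After vehicle the Y share separated the genotypes, so the term and the genotype can hardly be told apart there. With that term only 1 of all 14651 genes passed after vehicle. The genotype difference after folic acid less that after vehicle was log2 1.90 (SE 0.42, limma adjusted p = 0.0193), and log2 0.45 with the Y share (limma adjusted p over 0.99). It lost its call without WT folic acid 2, WT folic acid 3 or WT vehicle 4 (limma adjusted p = 0.053, 0.061 and 0.052). In the mean of both treatments Srd5a1 was at log2 -0.91 (SE 0.21, limma adjusted p = 0.041). That call was lost with the Y share as a term (limma adjusted p = 0.057) and on leaving out any of 9 libraries.

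**Figure D2:**
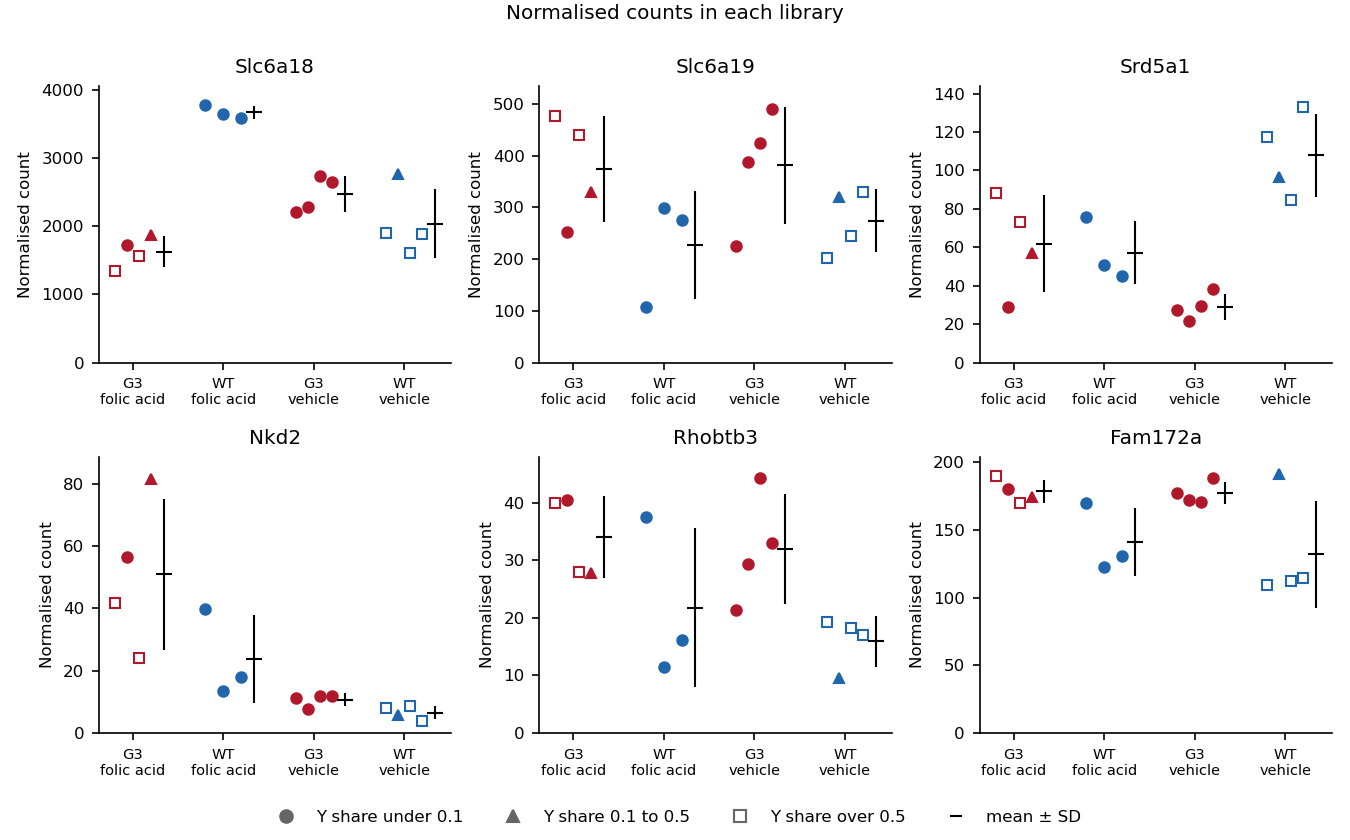
Normalised counts of 6 members of the list in every library, by group, with the mean and SD beside the points and the marker giving the Y share of the library. Slc6a18 separates G3 from WT after folic acid, and Srd5a1 separates them after vehicle. After vehicle the Y share is under 0.1 in every G3 library and in no WT library, so it and the genotype go together there.

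Promoters are shown from RefSeq (GRCm38.p6), which had an entry for 35 of the 39 genes and none for Slc6a18. Srd5a1 was called between genotypes and Nkd2 between treatments. Of the genes of the region called between genotypes, Ndufs6, which is not on the list, lay nearest to Tert after Slc6a18. Each runs from 250 bases before the transcription start, in lower case, to 50 bases from the start onward, in capitals, 5′ to 3′ on the gene's own strand. Srd5a1 is on the minus strand at chr13:69611414-69611713, Nkd2 on the minus strand at chr13:73847582-73847881 and Ndufs6 on the minus strand at chr13:73328433-73328732.
Srd5a1: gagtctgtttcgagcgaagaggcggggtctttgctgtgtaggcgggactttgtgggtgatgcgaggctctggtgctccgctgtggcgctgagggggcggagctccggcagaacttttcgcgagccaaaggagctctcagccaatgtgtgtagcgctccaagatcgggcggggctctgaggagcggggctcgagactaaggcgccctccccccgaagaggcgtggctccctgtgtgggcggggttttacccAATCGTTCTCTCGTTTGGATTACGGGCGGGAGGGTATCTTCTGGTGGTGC
Nkd2: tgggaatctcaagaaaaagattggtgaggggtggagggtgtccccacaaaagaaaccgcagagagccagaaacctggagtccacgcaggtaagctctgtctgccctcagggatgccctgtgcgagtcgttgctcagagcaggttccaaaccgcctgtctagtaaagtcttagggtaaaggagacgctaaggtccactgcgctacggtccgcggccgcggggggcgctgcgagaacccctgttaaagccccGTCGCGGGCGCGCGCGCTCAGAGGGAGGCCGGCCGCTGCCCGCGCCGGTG
Ndufs6: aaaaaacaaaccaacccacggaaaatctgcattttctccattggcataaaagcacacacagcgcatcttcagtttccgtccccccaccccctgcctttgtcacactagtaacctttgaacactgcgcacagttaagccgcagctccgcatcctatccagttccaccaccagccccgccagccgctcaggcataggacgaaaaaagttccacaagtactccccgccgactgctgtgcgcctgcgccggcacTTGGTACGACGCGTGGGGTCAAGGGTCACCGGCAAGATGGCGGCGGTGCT
All 3 are rich in G and C (63%, 63% and 57%), with 24, 26 and 20 CG pairs. GGGCGG, the GC box, was searched on both strands and occurred 4 times before or after the Srd5a1 start and 0 times in the other 2 windows, and 35.7% of 32851 promoter windows hold it. CCAAT occurred 2 times at Srd5a1 and 1 time each at Nkd2 and Ndufs6, and 37.4% of windows hold it. TATAAA occurred in none of the 3, and 13.6% of windows hold it. The Ndufs6 window also covers the GENCODE start of Mrpl36 on the plus strand, and the 2 genes overlap head to head by 30 bases.

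Nkd2, an inhibitor of Wnt signalling that binds Dishevelled, lies 0.169 Mb from Tert. Its count was 41.8, 56.4, 24.0 and 81.4 in G3 and 39.7, 13.4 and 18.1 in WT after folic acid. After vehicle it was 11.19, 7.816, 11.90 and 12.03 in G3 and 7.917, 5.687, 8.635 and 3.996 in WT. G3 tended to the higher values in both treatments but the groups overlapped. The mean difference was log2 0.87 (SE 0.28, limma adjusted p = 0.099), and log2 1.09 without WT folic acid 1 (limma adjusted p = 0.031). The 4 fibroblast and pericyte markers summed to 1247 to 2464 in G3 folic acid and to 718 to 4411 in WT folic acid, with a WT median of 768. Their part in the Nkd2 counts was not tested.

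In Fam172a and Rhobtb3 the G3 libraries lay above most WT libraries in both treatments. Fam172a, 4.05 Mb from Tert (start 77702033, end 78166235), had 189.7, 180.4, 169.8 and 174.5 in G3 and 170, 123 and 131 in WT after folic acid. After vehicle it had 177, 172, 171 and 188 in G3 and 110, 192, 112 and 115 in WT. The 8 G3 libraries thus spanned 169.8 to 189.7 in both treatments, 5 WT libraries lay between 110 and 131, and WT vehicle 2 and WT folic acid 1 lay in the G3 range or above it. The mean difference was log2 0.41 (SE 0.12, limma adjusted p = 0.080). It passed without WT vehicle 2 (limma adjusted p = 0.025), without WT folic acid 1 (limma adjusted p = 0.033) and without G3 folic acid 4 and WT vehicle 2 together (limma adjusted p = 0.029). The Y share as a term gave log2 0.32 (limma adjusted p = 0.137).

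Rhobtb3 lies 2.22 Mb from Tert (start 75869537, end 75943925). It had 39.9, 40.4, 28.0 and 27.7 in G3 and 37.4, 11.5 and 16.2 in WT after folic acid. After vehicle it had 21.4, 29.3, 44.4 and 33.1 in G3 and 19.2, 9.48, 18.2 and 17.0 in WT, with no overlap. All 8 G3 libraries lay above 6 of the 7 WT libraries, and WT folic acid 1 was the exception. The mean difference was log2 0.86 (SE 0.25, limma adjusted p = 0.069), and log2 0.95 with the Y share (limma adjusted p = 0.063). It passed without WT folic acid 1 (limma adjusted p = 0.017), without G3 vehicle 1 (limma adjusted p = 0.039) and with DESeq2 (adjusted p = 0.037).

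The genes nearest to Tert on the centromere side showed small differences. Clptm1l, a membrane protein gene that ends 0.0063 Mb before Tert, had 195, 193, 223 and 157 in G3 and 138, 139 and 131 in WT after folic acid, with no overlap (log2 0.48, SE 0.22, limma adjusted p = 0.239). After vehicle Clptm1l had 114, 231, 199 and 180 in G3 and 118, 145, 189 and 215 in WT, which overlapped (log2 0.11). Lpcat1, a lysophospholipid acyltransferase gene 0.1105 Mb from Tert, had 149.8, 185.1, 122.9 and 143.1 in G3 and 181.5, 125.7 and 109.6 in WT after folic acid, and 148.5, 144.6, 139.6 and 118.3 in G3 and 87.08, 129.9, 107.5 and 101.9 in WT after vehicle. The Lpcat1 mean difference was log2 0.25 (SE 0.13, limma adjusted p = 0.270).

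Among genes lower in G3 without passing over all genes were Cast, Exoc3 and Arrdc3. Cast encodes calpastatin, the calpain inhibitor, and had 469.3, 472.6, 405.6 and 560.9 in G3 and 712.5, 620.0 and 629.1 in WT after folic acid, with no overlap. After vehicle Cast had 594, 384, 436 and 404 in G3 and 542, 585, 526 and 431 in WT. Its mean difference was log2 -0.33 (SE 0.11, limma adjusted p = 0.096), and log2 -0.40 without G3 vehicle 1 (limma adjusted p = 0.025). Exoc3, an exocyst subunit gene, had 373, 375, 398 and 470 in G3 and 465, 516 and 478 in WT after folic acid, and 364.1, 343.9, 349.5 and 352.8 in G3 and 433, 483, 340 and 419 in WT after vehicle (mean log2 -0.25, SE 0.09, limma adjusted p = 0.1103). Arrdc3, an alpha-arrestin gene, had 135, 150, 200 and 128 in G3 and 279, 162 and 192 in WT after folic acid, and 190, 295, 118 and 151 in G3 and 234, 214, 380 and 384 in WT after vehicle (mean log2 -0.58, SE 0.19, limma adjusted p = 0.111). Cast overlaps the end of Erap1 on the other strand by 834 bases, and Exoc3 and Slc9a3 end 46 bases apart on opposite strands, so reads of each pair may have been exchanged if strand was not used.

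Fastkd3, Mrpl36 and Glrx separated the genotypes after folic acid without passing over all genes. Fastkd3, a mitochondrial RNA-binding protein gene, had 21.6 to 36.0 in G3 and 11.3 to 18.2 in WT after folic acid (log2 0.91, limma adjusted p = 0.111). Mrpl36, a mitochondrial ribosomal protein gene, had 109 to 150 in G3 and 79.7 to 99.8 in WT (log2 0.50, limma adjusted p = 0.117). Glrx, the glutaredoxin gene, had 82.7 to 128 in G3 and 52.4 to 73.9 in WT (log2 0.75, limma adjusted p = 0.073). After vehicle the groups of all 3 overlapped, at log2 0.14 (Fastkd3), log2 -0.13 (Mrpl36) and log2 0.05 (Glrx). Once the Y share was a term these were log2 0.95, log2 0.42 and log2 0.40 after vehicle, and log2 0.45, log2 0.19 and log2 0.55 after folic acid, in the same gene order. Fastkd3 and Mrpl36 were among the 6 members whose counts moved with the Y share at an unadjusted p under 0.05, with Srd5a1, Irx1 and Pdcd6 (all higher where Y-linked RNA was higher) and Slc6a18 (lower). At that level 11.3% of all genes did. None of the 6 passed over all genes, where 1.3% of genes did.

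The remaining tested members showed no call in any genotype comparison, and their differences in the mean of both treatments ran from log2 -0.36 (Irx2) to log2 0.42 (Mctp1). They were Mtrr, Med10, Ice1, Irx1, Irx2, Brd9, Tppp, Cep72, Pdcd6, Ccdc127, Erap1, Ell2, Arsk, Ttc37, Mctp1 and Nr2f1. Ell2, a transcription elongation factor gene, did not overlap after vehicle (129 to 163 in G3, 165 to 200 in WT), and Ccdc127 did not after folic acid (108 to 127 in G3, 139 to 170 in WT). Arsk and Ttc37, which start 74 bases apart on opposite strands, were at log2 -0.01 and log2 0.02. The 3 members below the filter had counts of 0 to 2.16 in G3 and 0 to 14.7 in WT for Adcy2, 1.002 to 9.395 in G3 and 0 to 3.81 in WT for Trip13, and 0.9395 to 12.98 in G3 and 0 to 5.76 in WT for Ahrr. Tested without the filter, none passed. Trip13, an AAA ATPase gene, had 1.002 to 6.102 in G3 and 0 to 1.896 in WT after vehicle, and its mean difference was log2 1.24 (SE 0.43, limma adjusted p = 0.145).

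Counted at an unadjusted p under 0.05, which asks for far less, the list gave 12 of 33 after folic acid, 8 higher and 4 lower in G3, where 20.4% of all genes did (9.57% higher and 10.9% lower). After vehicle it gave 7 of 33, 3 higher and 4 lower, near the 17.9% of all genes (7.95% and 9.95%). In the mean of both treatments it gave 16 of 33, 7 higher and 9 lower, where 20.8% of all genes did (9.7% and 11.1%). The Y share as a term gave 19 of 33, against 21.3% of all genes. Leaving out 1 library at a time gave 12 to 17 of 33, where 2422 to 3682 of all 14651 genes passed at that level. The title series as a term gave 4 of 33, where 612 of all genes did. The sign of the difference was the same after folic acid and after vehicle in 24 of 33 members (72.7%), against 53.9% of all genes, 36 of 62 other genes within 10 Mb and 238 of 474 genes farther off on chromosome 13. Groups did not overlap for 8 of 33 members after folic acid, against 17.3% of all genes, and for 3 of 33 after vehicle, against 11%. With all 8 G3 libraries set against all 7 WT libraries, 0 of 33 members separated, against 0.403% of all genes. Neighbouring genes are not independent of each other, and whether the list differs from other genes in these shares was not tested.

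**Figure D3:**
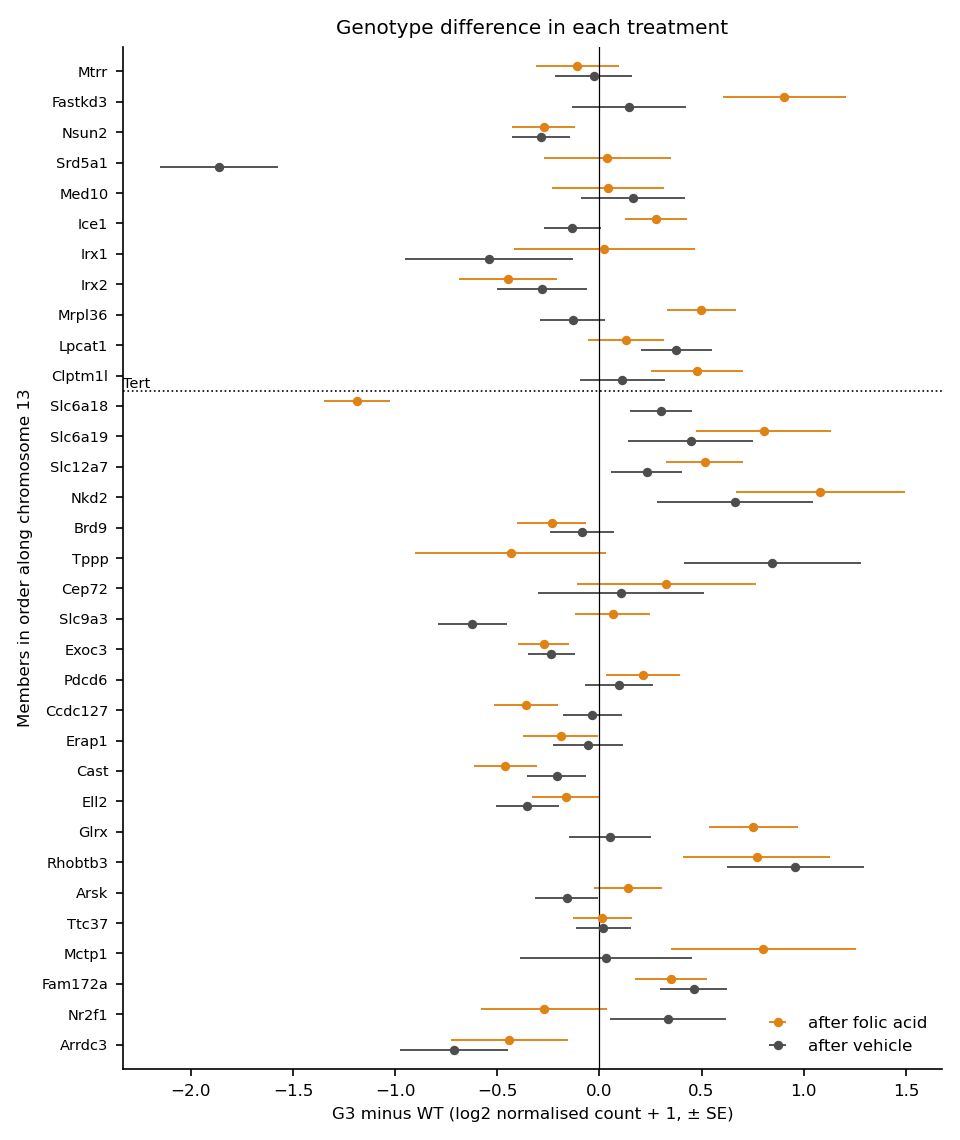
Difference between G3 and WT with its standard error (log2 normalised count + 1) for each of the 33 tested members, in order along chromosome 13, after folic acid in orange and after vehicle in grey. The dotted line marks the place of Tert. Most pairs of points lie on the same side of 0, while Slc6a18 (log2 -1.19 and log2 0.30) and Srd5a1 (log2 0.04 and log2 -1.86) part.

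The other genes of the region gave 21 of 62 at an unadjusted p under 0.05 in the mean of both treatments, and genes farther than 10 Mb on the same chromosome 103 of 474. By distance the share was 34.6% of 26 genes within 1 Mb of Tert, 44.4% of 9 genes from 1 to 2.5 Mb, 38.5% of 13 genes from 2.5 to 5 Mb and 40.4% of 47 genes from 5 to 10 Mb. It was 17.6% of 108 genes from 10 to 20 Mb and 23.0% of 366 genes beyond. After folic acid alone the shares were 46.2% within 1 Mb, 33.3%, 7.69% and 27.7% in the next 3 bands, and 21.3% and 24.6% beyond 10 Mb. After vehicle alone they were 15.4%, 22.2%, 23.1% and 19.1% within 10 Mb, and 14.8% and 22.1% beyond. The band within 1 Mb thus stood highest of the 6 after folic acid and not in the other comparisons, and the bands from 1 to 5 Mb hold fewer than 20 genes each. Chromosome 13 as a whole had 24.6%, the highest of 20 chromosomes, over a range that began at 17.9%.

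**Figure D4:**
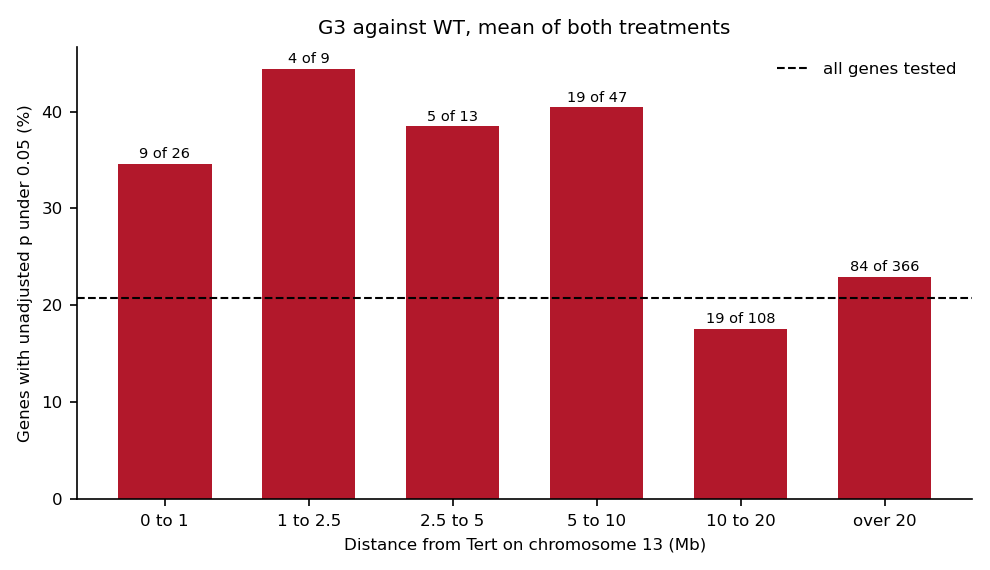
Share of tested chromosome 13 genes with an unadjusted p under 0.05 for G3 against WT in the mean of both treatments, by distance from Tert in Mb, with the number of genes on each bar and the share of all genes tested (20.8%) as a dashed line. The 4 bars within 10 Mb lie between 34.6% and 44.4% and the 2 bars beyond at 17.6% and 23.0%.

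Of 62 tested genes of the region not on the list, 3 differed in the mean of both treatments, against 2% of all genes. All 3 were lower in G3 than in WT. Mterf3, a mitochondrial transcription terminator family gene 6.69 Mb from Tert (start 66906968, end 66933088), had 46.3, 52.6, 49.0 and 32.2 in G3 and 66.9, 76.8 and 82.0 in WT after folic acid. After vehicle it had 47.8, 56.7, 46.5 and 47.1 in G3 and 66.7, 84.4, 64.3 and 63.9 in WT. All 8 G3 libraries lay below all 7 WT libraries, whatever their Y share. Of the 62 other genes of the region 2 separated all libraries by genotype, against 0.403% of all genes. They were Mterf3, lower in G3, and Zfp953, higher in G3. Zfp953, a zinc finger gene 6.27 Mb from Tert, was named after its values were seen. Zfp953 had 7.157 to 19.54 in G3 and 2.262 to 6.807 in WT (log2 1.05, SE 0.29, limma adjusted p = 0.066). The mean level of Mterf3 was 1.53-fold lower in G3 (log2 -0.61, SE 0.13, limma adjusted p = 0.033), and log2 -0.65 with the Y share (limma adjusted p = 0.031). The call was lost without any 1 of 6 libraries (limma adjusted p up to 0.085) and with the title series as a term (log2 -0.51).

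Ndufs6, a complex I subunit gene 0.298 Mb from Tert (start 73319838, end 73328542), had 1496, 1255, 1788 and 1812 in G3 and 2309, 2509 and 2206 in WT after folic acid. After vehicle it had 2060, 1821, 1455 and 1635 in G3 and 2323, 2509, 1803 and 2304 in WT, overlapping only through WT vehicle 3. Ndufs6 was 1.38-fold lower in G3 (log2 -0.47, SE 0.11, limma adjusted p = 0.039), and log2 -0.46 with the Y share (limma adjusted p = 0.051). Its head-to-head partner Mrpl36 was at log2 0.18. Zfp874b, a zinc finger gene 6.14 Mb away in a cluster of related genes that may exchange reads, was 1.76-fold lower in G3 (log2 -0.82, SE 0.18, limma adjusted p = 0.035). It was at log2 -1.43 after folic acid (limma adjusted p = 0.015) and log2 -0.20 after vehicle. Both calls of Zfp874b were lost once the Y share was a term (log2 -1.57 after folic acid, limma adjusted p = 0.086, and log2 -0.76 in the mean, limma adjusted p = 0.051). The mean calls of Ndufs6 and Zfp874b were each lost on leaving out most single libraries. After vehicle alone Zfp729a (log2 -1.03) and Habp4 (log2 -0.80) were lower in G3 (limma adjusted p = 0.021 for each). Adding the Y share put them at log2 -0.47 and log2 -0.03.

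Folic acid was also compared with vehicle within each genotype. In G3 1 of 33 passed, against 0.273% of all genes: Nkd2, 4.09-fold higher after folic acid (log2 2.03, SE 0.38, limma adjusted p = 0.038), with all 4 folic acid libraries above all 4 vehicle libraries. In WT 2 of 33 passed, against 5.06% of all genes. Nkd2 was 3.06-fold higher (log2 1.61, SE 0.41, limma adjusted p = 0.035) and Slc6a18 1.84-fold higher (log2 0.88, SE 0.16, limma adjusted p = 0.012). In G3 Slc6a18 was at log2 -0.61 after folic acid (SE 0.15, limma adjusted p = 0.077). Both treatments' comparisons share libraries with the genotype comparisons. No member passed in either genotype once the Y share was a term (0.0614% of all genes passed in G3 and 0.00683% in WT): Nkd2 was at log2 2.34 in G3 (limma adjusted p = 0.143) and log2 1.09 in WT, and Slc6a18 at log2 0.38 in WT. The WT call of Nkd2 was lost without WT folic acid 1 (log2 1.18, limma adjusted p = 0.167), WT folic acid 3 or WT vehicle 1, 3 or 4, and the G3 call without any 1 of 8 libraries.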

How the data were processed

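RNA was measured in 15 whole-kidney libraries made, per the labels' protocols, with a strand-keeping 3′ kit. Per the submitters' processing notes the tools were FastQC 0.11.7, TopHat2 2.0.10, Bowtie 1.0.0, SAMtools 0.1.19, HTSeq 0.6.1 and DESeq2, with the build GRCm38. No source used here gives the annotation release or whether counting used strand. As deposited, the values are a signal, namely gene counts after division by a size factor for each library. Division by the step of each library gave whole reads for 100% of values within 0.001.

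The filter kept 14651 genes that reached 10 in 3 or more libraries. limma 3.58.1 (R 4.3.3), with its trend option, was fitted to log2(normalised count + 1) of all 15 libraries, with 1 mean for each group. The p-values were adjusted by Benjamini-Hochberg over all genes, with calls under 0.05, in 6 comparisons. No sex term was used because labelled sex went against Xist and Y-linked RNA. Of the symbols, 19509 were placed with GENCODE M21. Alternatives were the Y share, labelled sex or title series as a term, tests of the whole reads with edgeR 4.0.16 or DESeq2 1.42.0, other filters, pseudocounts of 0.5 and 5, TMM scaling, only the groups compared, and leaving out libraries. edgeR with the Y share, and leaving out libraries with the Y share, were added after seeing the data. The procedure was tested on data simulated with the same spread for every gene and library, so no library stood apart there. Libraries of 1 group differed by more than counting noise (mean chi-square per gene 2.70 for the closest pair). WT folic acid 1 lay farthest from its group, at 60.5 against WT folic acid 2 and 64.2 against WT folic acid 3. The next highest pair was at 27.4.

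The members, the lists and the rule for genes described in full were chosen with earlier results of these data known. The rule names all members, with every library's value for members called in a genotype comparison, the 8 of smallest p in the mean comparison and the 6 nearest to Tert, and up to 10 called non-members within 10 Mb. Slc9a3, Fastkd3, Mrpl36, Glrx, Ell2 and Ccdc127 were also given with values, chosen after these were seen. Marker lists printed are proximal tubule, thick ascending limb, adipose, fibroblast and pericyte, and male mouse kidney. The adipose list was picked for printing after its values were seen. The sample table used here gave the lower age as a number that the labels do not state, so it is not printed and entered no fit.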

Additional observations from a re-analysis of the deposited data

Results flagged for a closer look

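The difference between G3 and WT itself differed between treatments for 2 neighbours, by limma's test of that difference. For Srd5a1 the difference after folic acid (log2 0.04) exceeded that after vehicle (log2 -1.86) by log2 1.90. For Slc6a18 the difference after folic acid (log2 -1.19) less that after vehicle (log2 0.30) was log2 -1.49. Both gaps lost their call with the Y share as a term (limma adjusted p over 0.99), where only 1 higher and 1 lower of all 14651 genes passed. Y-linked RNA differed between genotypes in opposite directions in the 2 treatments. Its part in both gaps was not tested beyond that term.

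A single library lay far from the other 3 of its group in 3 of 99 groups of 4 that were examined, and chance gives about 1 in 20. Fam172a had 191.5 in WT vehicle 2, a library with both Xist and Y-linked RNA, against 109.7 to 114.9 in the other WT vehicle libraries. Brd9, a subunit gene of a chromatin remodelling complex, had 374 in G3 folic acid 4, the other library of mixed RNA, against 256.9 to 264 in its group. Irx2 had 56.94 in WT vehicle 4, against 58.52 to 58.81, a gap of under 2 reads.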

How the results depend on the processing

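No paired analysis was possible because replicate numbers follow the order of accessions and pair no libraries. In fits without the Y share, the calls of Slc6a18 after folic acid and of Srd5a1 after vehicle held without each library in turn. Leaving out single libraries gave 1 to 2 members called after folic acid, 1 to 3 after vehicle, 0 to 5 in the mean of both (0 to 7 with the Y share), 1 to 4 for the difference between treatments, 1 to 4 for folic acid in WT and 0 to 2 in G3. The 7 with the Y share came without G3 vehicle 1, where 515 of all genes were higher and 544 lower. The 3 after vehicle and both counts of 4 came without WT vehicle 2. Of all genes 251 were then higher and 435 lower after vehicle, 515 and 413 for the difference, and 589 and 720 for folic acid. At an unadjusted p under 0.05 leaving out single libraries gave 6 to 13 after folic acid (2134 to 3390 of all genes). After vehicle 4 to 11 members did (1997 to 2928 of all genes).

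With the Y share as a term 0 members passed after vehicle, for the difference between treatments and for folic acid in either genotype, and 1 in the mean of both. Without the 2 libraries of mixed RNA as well, 0 passed in each of these. Of all 14651 genes, the Y share as a term left 1 lower after vehicle, and 1 higher and 1 lower for the difference. In the mean it left 91 higher and 175 lower, and 2 and 17 without the 2 libraries of mixed RNA. For folic acid it left 0.0614% of all genes in G3 and 0.00683% in WT. With edgeR and the Y share 0 passed in each comparison except the mean, with 1, where 114 of all genes were higher and 192 lower. With the title series as a term 0 members passed in any comparison. Of all 14651 genes, 0 passed there after folic acid, in the mean and for folic acid in G3. After vehicle 1 was lower, for folic acid in WT 2 were lower, and for the difference 3 were higher. Where so few of all genes passed, 0 of 33 members says little about the neighbours. Brackets below give how many of all genes tested passed, higher and lower. With labelled sex 0 members passed after vehicle (1 and 16), in the mean (16 and 52) and for folic acid in G3 (8 and 4). For the difference between treatments 1 passed (55 and 48). Without the 2 libraries of mixed RNA 3 passed after vehicle (224 and 389) and 1 in the mean (26 and 72). For the difference 4 passed (511 and 448), for folic acid in WT 4 (560 and 681) and in G3 0 (3 and 8). DESeq2 gave 2 after folic acid (310 and 468), 2 after vehicle (250 and 537) and 3 for folic acid in G3 (253 and 134). In the mean, edgeR (99 and 169), a pseudocount of 0.5 (97 and 192) and TMM (101 and 169) each gave 1. No filter, with 36 members and 19602 genes tested, also gave 1 in the mean (63 and 143). The filter of 50 left 25 members and 9733 genes tested. It gave 2 members after vehicle (132 and 335), 1 for folic acid in WT (292 and 457) and 0 in G3 (8 and 8). Fits of only the groups compared gave, for folic acid, 1 in WT (142 and 278) and 2 in G3 (152 and 56).

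At an unadjusted p under 0.05, the title series gave 2 members after folic acid, 3 after vehicle and 4 in the mean. Of all 14651 genes 623, 956 and 612 did. With the Y share 6 of 33 members did after folic acid (1536 of all genes) and 7 after vehicle (849 of all genes). Without the 2 libraries of mixed RNA as well, these were 6 (1831 of all genes) and 4 (425 of all genes). With edgeR and the Y share 5 did after folic acid (1496 of all genes). Of 1057 single-gene values under alternatives, 821 kept direction and side of the threshold, 206 lost a call, 16 gained a call and 14 changed direction. The 821 include values of genes that had no call to lose. Srd5a1 after folic acid changed to log2 -0.41 (edgeR with the Y share), -0.0179 (labelled sex), -0.39 (title series), -0.48 (Y share) and -0.95 (Y share without mixed libraries), and ran from -0.17 to 0.36 without single libraries. Its difference between treatments was log2 -0.92 with the Y share and without mixed libraries. Slc6a18 after vehicle was log2 -0.21 with the Y share in limma and in edgeR. With the title series, Clptm1l was at log2 -0.15 and Tert at log2 1.35 in the mean. The cause of these shifts was not tested. Counts of a few reads limit Tert, Trip13, Ahrr and Adcy2.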
